A study of Macaca mulatta with 2 samples.

Results

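The genes described here make, carry, bind and break down retinoic acid, the active form of vitamin A. They were chosen by name for their roles, as *ALDH1A1*, *ALDH1A2*, *ALDH1A3*, *RBP4*, *CRABP2*, *STRA6*, *RARB*, *CYP26B1* and *TTR*, and 8 of these 9 symbols had a row among the 16684 genes of the table. *CYP26B1* was not analysed here. Total RNA from wild-type, untreated *Macaca mulatta* optic nerves was sequenced in 2 libraries, named Rep1 and Rep2, which form a single condition. The methods name one male of 12 years as the donor, whereas the design text of the series speaks of different animals, so the libraries may be nerves of the same animal or of separate animals. The nerves were discarded tissue taken after death. With 1 condition there was no group comparison and no test, and every difference below is a difference between these libraries. Values are TPM, in which read counts are corrected for gene length and expressed as a share of their library, which allows levels of different genes to be compared.

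Vitamin A travels in blood as retinol bound to RBP4, which circulates in a complex with transthyretin, the product of *TTR*. STRA6 is a membrane receptor for RBP4 that lets retinol into the cell, where dehydrogenases oxidize it to retinal and the ALDH1A enzymes oxidize retinal to retinoic acid. CRABP2 carries retinoic acid to the nuclear receptors of the RAR family, to which RARB belongs, and the CYP26 enzymes degrade it. In the eye and the nervous system this pathway is known for patterning the developing optic cup, and in the adult meninges fibroblasts are a known site of *ALDH1A2* expression.

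The best known DNA element of the pathway lies in *RARB*, a gene that is both a receptor for retinoic acid and a classical target of it, and it is shown because the receptor is known to act on its own gene through it. It consists of 2 half-sites in the same direction with 5 bases between them (a direct repeat, DR5). The Mmul_10 genome was searched on both strands for this arrangement of the half-site AGGTCA and its variants with AGTTCA for one, GGGTCA for another and GGTTCA for the last, in any combination. From 5000 bases before to 5000 bases after the gene, *RARB* held 3 matches, all on its own strand, and the other 7 members held 0. The half-sites are in capitals:
RARB, chr2:22233665-22233694, minus strand: cgggtagGGTTCAccgaaAGTTCActcgca
RARB, chr2:22316856-22316885, minus strand: ctaactgAGGTCAattctAGTTCAgcttcc
RARB, chr2:22330166-22330195, minus strand: ctgagagAGGTCAttctgGGTTCAgagatt
The first of these has the sequence of that known element. It lies 506 bases before a first coding base of *RARB*, in sequence that RefSeq annotates as an untranslated part of a transcript that starts further upstream. The remaining *RARB* matches are intronic. Over the assembled chromosomes the search gave 2.25 matches per Mb, and over the spans of the 8 members 3.36 per Mb, so the number of matches alone sets the members little apart from the genome. *RARB* has the longest span, 433 kb, in which the genome rate would give 0.97 matches. In each other member that rate would give between 0.034 and 0.438, so 0 matches there says little. In windows from 250 bases before to 50 bases after the 15 annotated starts of the members' coding transcripts, no such repeat with a spacer of 5, 2 or 1 bases was found, against 0.756% of 48176 windows over all coding transcripts. The whole-gene search was added after these windows had been read. The table gives 1 value per gene, so it does not show which *RARB* start was used.

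Several members have close relatives, and their coding sequences are shown because shared stretches are where reads could be assigned to the wrong gene. Over their aligned coding bases *ALDH1A1* was 72.4% identical to *ALDH1A2* and 70.3% to *ALDH1A3*, and *ALDH1A2* and *ALDH1A3* were 69.6% identical. The longest run of identical bases in the family was 32, between *ALDH1A1* and *ALDH1A3*. The window of 60 coding bases around it reads as follows, with bases that differ from *ALDH1A1* in capitals. Each window crosses an intron:
ALDH1A1, chr15:88314664-88316773, minus strand: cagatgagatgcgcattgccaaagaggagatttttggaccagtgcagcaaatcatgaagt
ALDH1A3, chr7:80197145-80198632, plus strand: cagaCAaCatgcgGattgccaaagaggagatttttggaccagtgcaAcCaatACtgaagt
ALDH1A2, chr7:34364316-34365096, minus strand: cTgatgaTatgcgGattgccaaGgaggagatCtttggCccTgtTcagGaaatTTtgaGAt
In this window *ALDH1A3* differed from *ALDH1A1* at 8 bases and *ALDH1A2* at 13.

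The *CRABP2* and *CRABP1* coding sequences were 74.6% identical, with no identical coding run longer than 12 bases. That run opens the coding sequence, shown here for the first 60 bases with differences from *CRABP2* in capitals:
CRABP2, chr1:94260131-94260190, plus strand: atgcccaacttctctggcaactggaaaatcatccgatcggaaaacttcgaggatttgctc
CRABP1, chr7:55582529-55582588, plus strand: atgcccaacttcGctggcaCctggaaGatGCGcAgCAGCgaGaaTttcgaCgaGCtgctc
*RARB* was 73.4% identical to *RARA* and 74.0% to *RARG* in coding sequence. The longest run shared with *RARA*, 29 bases, lies in the part that encodes the first zinc finger of the DNA-binding domain, with differences from *RARB* in capitals:
RARB, chr2:22160823-22200719, minus strand, across an intron: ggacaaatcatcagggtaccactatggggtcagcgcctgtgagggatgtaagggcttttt
RARA, chr16:51504313-51505683, plus strand, across an intron: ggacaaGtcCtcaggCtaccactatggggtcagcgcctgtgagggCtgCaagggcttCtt
RARG, chr11:52780871-52781141, minus strand, across an intron: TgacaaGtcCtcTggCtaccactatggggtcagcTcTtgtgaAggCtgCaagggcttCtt
None of the 8 members shared exonic bases of a coding transcript with another annotated gene, although *ALDH1A1*, *ALDH1A2*, *CRABP2* and *RARB* each overlap another gene outside the exons of their coding transcripts.

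The libraries differed in depth and in content, which bears on every value that follows. A read added 17.2 times as many TPM in Rep1 as in Rep2, a constant with which the values of 99.9% of the 10168 genes detected in both libraries were ratios of whole read numbers. For such genes the smallest whole numbers are given below as the least number of reads behind a value, and the true number may be a multiple of it. This bound uses no gene length, so it can lie far below the true number. Rep1 listed 38.5% of all genes at 0, and Rep2 12.5%. Optic nerve markers were present in both libraries and higher in Rep2, with the 8 oligodendrocyte markers from 15.3 to 43721 TPM in Rep1 and from 72.2 to 199595 TPM in Rep2. The 8 photoreceptor markers ran from 2.80 to 2763 TPM in Rep1 and from 0 to 2.49 TPM in Rep2, so Rep1 carried retinal transcripts. With a limit of 2-fold in log2(TPM + 1), 5 of these 8 were higher in Rep1 and 3 were within it. Of all genes averaging at least 1 TPM, 18.2% were higher in Rep1 at this limit. Over the 11754 genes averaging at least 1 TPM, the median difference of Rep1 minus Rep2 was -1.52 on the log2(TPM + 1) scale.

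All 8 members were lower in Rep1 than in Rep2 as deposited, though *RARB* was higher in Rep1 once the libraries were scaled by the median of ratios. *CRABP2* was the highest member in both libraries. With a limit of 2-fold in log2(TPM + 1), 7 of the 8 members were higher in Rep2, where 58.7% of all genes averaging at least 1 TPM were, and 0 members were higher in Rep1, where 18.2% of all genes were. Their median difference was -2.60, beside -1.52 for all genes. After scaling the libraries by the median of ratios, which shifts Rep1 by 1.19 against Rep2 on the log2 scale, 5 of 8 members were at least 2-fold higher in Rep2 and 0 in Rep1, beside 40.2% and 28.8% of all genes. The median difference was then -1.80 for the members and -0.48 for all genes. *RARB* was the member nearest to equal levels as deposited. All 8 members averaged at least 1 TPM, but *ALDH1A3* and *STRA6* did so only through Rep2. Being listed at 0 in Rep1 applied to these 2 of 8 members and to 15.9% of the 11754 genes averaging at least 1 TPM. Among genes above 0 in both libraries, 5 of 6 members were at least 2-fold higher in Rep2 as deposited, beside 49.6% of 10168 genes.

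**Figure D1:**
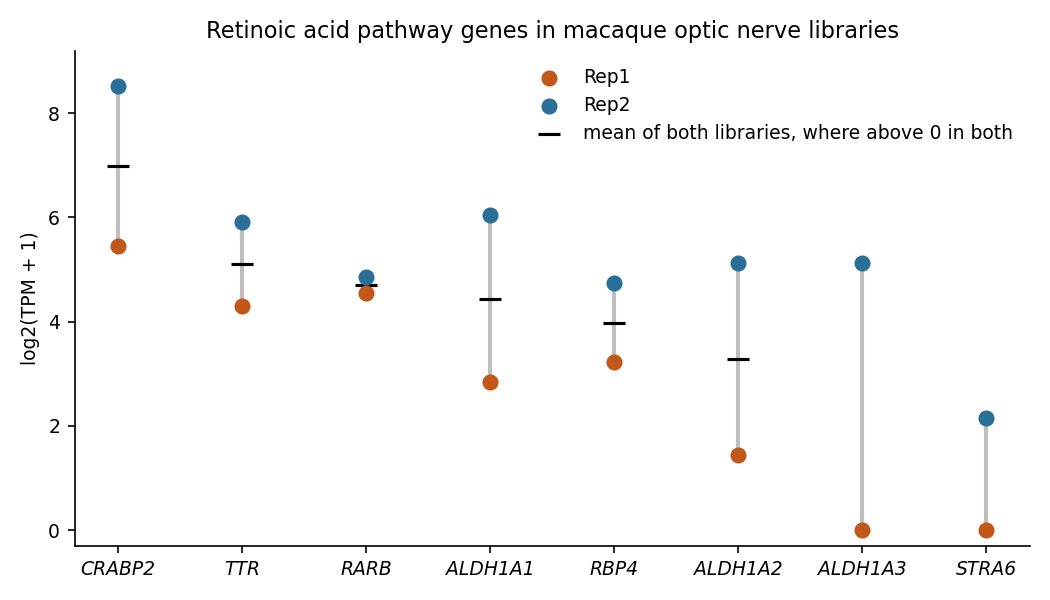
The log2(TPM + 1) of each retinoic acid gene in Rep1 (orange) and Rep2 (blue), with a black dash at the mean of the libraries where the gene was above 0 in both and a grey line between the libraries. *CRABP2* stood highest in both libraries, the 2 values of *RARB* lay closest together, and *ALDH1A3* and *STRA6* were at 0 in Rep1.

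*CRABP2*, the intracellular carrier that hands retinoic acid to its receptors, is located at 94260124 to 94265236 of chromosome 1 (Mmul_10, plus strand). It was at 42.9 TPM in Rep1 and at 366 TPM in Rep2, or 204 ± 228 TPM (SD, n = 2), and these values rested on at least 17 and 2491 reads. Ranked among the 14693 genes that either library detected, its mean was at percentile 94.8. Rep2 was thus 8.53-fold higher, and the SD exceeded the mean. The gene was nevertheless above all other members in each library taken alone. Its relative *CRABP1*, which also binds retinoic acid in the cytoplasm, was at 42.3 TPM in Rep1 and at 424 TPM in Rep2. *CRABP2* made up 50.3% of their summed TPM in Rep1 and 46.3% in Rep2. The bounds for *CRABP1* were 1 and 172 reads. However, its compared RefSeq transcript has 1383 bases, against 588 for *CRABP2*. With lengths like these, *CRABP1* would need more reads than *CRABP2* at about equal TPM in Rep1. The lengths used for TPM are not given, so the reads behind the Rep1 share are not known.

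Of the enzymes that make retinoic acid, *ALDH1A1* had the highest level. It lies on chromosome 15 from 88305399 to 88490317 on the minus strand and was at 6.13 TPM in Rep1 and at 65.3 TPM in Rep2 (35.7 ± 41.9 TPM, SD, n = 2), from at least 5 and 916 reads. *ALDH1A2*, on chromosome 7 from 34356402 to 34472958 on the minus strand, was at 1.73 TPM in Rep1 and at 33.8 TPM in Rep2 (17.7 ± 22.7 TPM, SD, n = 2), from at least 1 and 336 reads. For its Rep1 value this bound is 1 read, and the true number is not known. *ALDH1A3*, on chromosome 7 from 80171431 to 80206167 on the plus strand, was listed at 0 in Rep1 but reached 33.8 TPM in Rep2. Of the 200 genes nearest to *ALDH1A3* in Rep2 level, 4.5% were also listed at 0 in Rep1, so a value of 0 was uncommon at this level but does not show that the transcript was missing. In Rep2 all 3 enzymes were present, with *ALDH1A2* and *ALDH1A3* at nearly the same level and *ALDH1A1* at 49.2% of the family sum. In Rep1 *ALDH1A1* made up 78.0% and *ALDH1A2* 22.0% of a sum of only 7.85 TPM, against 133 TPM in Rep2.

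The genes of retinol transport were lower than *CRABP2*. *TTR*, which encodes the thyroid hormone and RBP4 carrier transthyretin, lies on chromosome 18 from 50942278 to 50949671 on the minus strand and was at 18.6 TPM in Rep1 and at 59.0 TPM in Rep2 (38.8 ± 28.6 TPM, SD, n = 2), from at least 9 and 491 reads. *RBP4*, the retinol carrier of plasma, lies on chromosome 9 from 93753317 to 93762850 on the minus strand and was at 8.32 TPM in Rep1 and at 25.7 TPM in Rep2 (17.0 ± 12.3 TPM, SD, n = 2), from at least 9 and 478 reads. The ratio of *TTR* to *RBP4* TPM was 2.23 in Rep1 and 2.30 in Rep2, so these partners differed between the libraries by nearly the same factor, 3.18-fold for *TTR* and 3.09-fold for *RBP4*. The ratios and family shares given here were chosen after the values had been seen. Both differences lay close to the median of all genes, by -0.10 for *TTR* and -0.0039 for *RBP4* on the log2 scale. *STRA6*, the RBP4 receptor, on chromosome 7 from 51185701 to 51218467 on the minus strand, was listed at 0 in Rep1 but reached 3.42 TPM in Rep2, the lowest Rep2 value among the members. Among the 200 genes nearest to it in Rep2 level, 42.5% were listed at 0 in Rep1, so that a 0 was common at this level.

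*RARB*, the retinoic acid receptor beta, lies on chromosome 2 from 22063429 to 22486584 on the minus strand. It was at 22.5 TPM in Rep1 and at 28.1 TPM in Rep2 (25.3 ± 3.98 TPM, SD, n = 2), from at least 29 and 623 reads. The libraries thus differed by 1.25-fold, and the log2 difference of -0.31 became 0.84 after scaling by the median of ratios. Relative to the median of all genes *RARB* was higher in Rep1 by 1.21, the only member for which this difference was above 0. In the same libraries *RARA* was at 32.3 and 14.3 TPM and *RARG* at 3.39 and 27.6 TPM. *RARB* made up 38.7% of the summed RAR TPM in Rep1 and 40.2% in Rep2, whereas *RARA* made up 55.5% and 20.4% and *RARG* 5.83% and 39.4%. In Rep1 the bound was 1 read for *RARG* and 5 for *RARA*. The compared RefSeq transcripts have 2995 bases for *RARG*, 3410 for *RARA* and 2948 for *RARB*. With lengths like these, *RARA* would need more reads in Rep1 than *RARB*, which had at least 29, so its bound would be too low. The lengths used for TPM are not given.

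**Figure D2:**
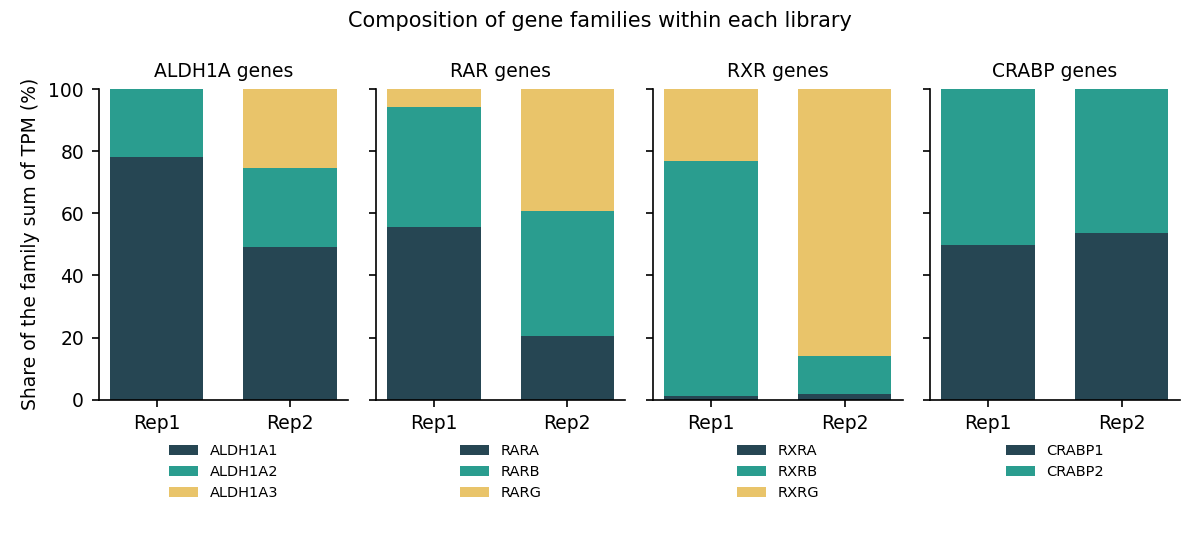
Stacked bars give the share in percent of the summed TPM of each gene family within Rep1 and Rep2, for the ALDH1A, RAR, RXR and CRABP genes. *RARB* made close to 40% of the RAR sum and *CRABP2* close to 50% of the CRABP sum, while *ALDH1A3* added 25.4% in Rep2 alone and the larger RXR share was *RXRB* in Rep1 and *RXRG* in Rep2.

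Ordered by mean log2(TPM + 1), the members were *CRABP2*, *TTR*, *RARB*, *ALDH1A1*, *RBP4*, *ALDH1A2*, *ALDH1A3* and *STRA6*. The places of *ALDH1A3* and *STRA6* rest on Rep2, since Rep1 lists both at 0. As the spread of a single library served the differences of the 200 genes closest in mean level to each member, and it lay between 1.33 and 1.95 on the log2 scale. The differences were taken about 0, so this spread also holds the general shift between the libraries. *CRABP2* was above *TTR* by 1.12 of these SDs, in both libraries. Each further pair of neighbours in the order was less than 1 SD apart, from 0.164 for *RARB* and *ALDH1A1* to 0.890 for *ALDH1A3* and *STRA6*. From *TTR* down, every pair of neighbours stood in this order in only 1 of the libraries, *ALDH1A3* and *STRA6* being tied at 0 in Rep1. Of the 28 pairs of members, 16 were over 1 SD apart and 15 of these had the same order in both libraries. With the spread taken about the mean difference of the same nearest genes, 17 pairs were over 1 SD apart. *CRABP2* was over 1 SD above each other member, and *STRA6* over 1 SD below each other member except *ALDH1A3*, so that the 5 genes between *CRABP2* and the pair listed at 0 in Rep1 were only in part separated by level.

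**Figure D3:**
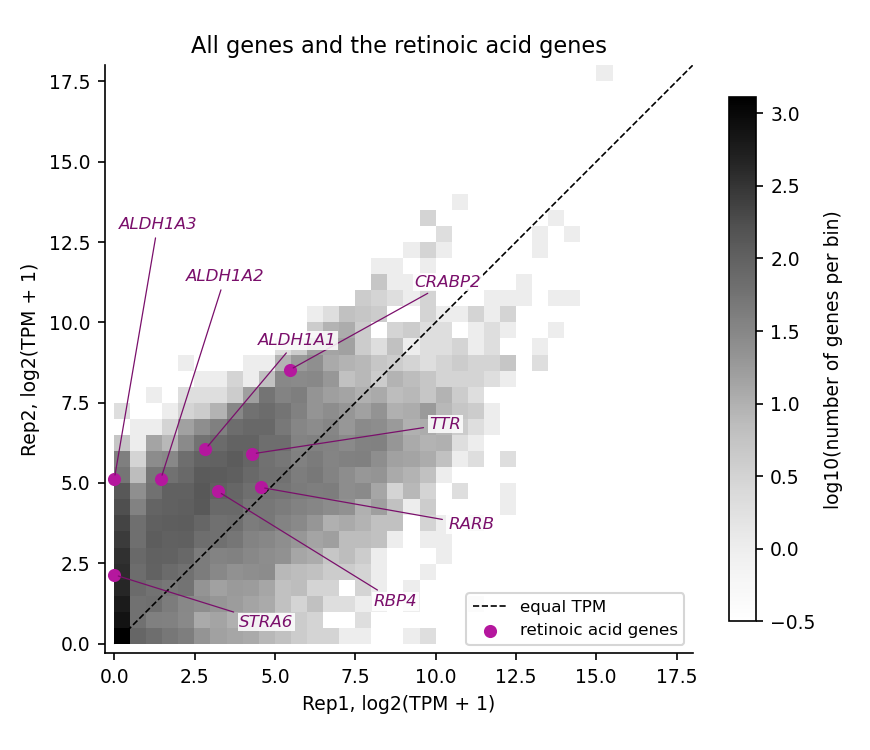
Each grey square counts genes by log2(TPM + 1) in Rep1 (horizontal) and Rep2 (vertical), darker for more genes on a log10 scale, with the retinoic acid genes as purple points and the dashed line at equal TPM. All 8 points lie above the line as deposited, *RARB* nearest to it and on its other side after scaling by the median of ratios, and *ALDH1A3* and *STRA6* lie on the left edge at 0 TPM in Rep1.

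The genes whose values were most like those of a member were sought for the members with the highest mean TPM, *CRABP2* and *TTR*, by Euclidean distance in log2(TPM + 1) over the 2 libraries. For *CRABP2* they were *LGMN* (distance 0.0735), *LITAF* (0.0841) and *MDH2* (0.0938). For *TTR* they were *CDK5RAP2* (0.0111), *EZR* (0.0547) and *NECAP1* (0.0706). With 2 libraries such likeness means only similar values in each of them.

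Other genes of the pathway were taken from lists of retinol uptake and storage, retinoid oxidoreductases, binding and breakdown, and receptors with their cofactors. Of the 47 genes, 43 had a row, 39 were above 0 in at least 1 library and 31 had a mean of at least 1 TPM. Of these 31, 21 were at least 2-fold higher in Rep2, 7 at least 2-fold higher in Rep1 and 3 in between, with a median difference of -1.63 beside -1.52 for all genes. After scaling by the median of ratios, 12 were higher in Rep2 and 9 in Rep1. Among the 27 above 0 in both libraries, 16 were at least 2-fold higher in Rep2 as deposited and 7 in Rep1. Of all 10168 such genes, 5040 and 2106 were. As a whole, the wider pathway thus lay near the background of all genes, with the steps differing in direction.

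Among genes of retinol uptake and storage, 5 of 6 were at least 2-fold higher in Rep2 and 0 in Rep1, beside 58.7% and 18.2% of all genes. After scaling these counts were 4 and 0, beside 40.2% and 28.8%. Of those counted as higher in Rep2, *RETSAT* and *SCARB1* were listed at 0 in Rep1 and averaged at least 1 TPM only through Rep2. *LPL*, a lipase that releases retinol esters from lipoproteins, was at 15.9 TPM in Rep1 and at 182 TPM in Rep2. *LRAT*, which stores retinol as esters, was listed at 0 in Rep1 and at 1.13 TPM in Rep2.

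Of 12 oxidoreductases, 10 were at least 2-fold higher in Rep2 and 1 in Rep1, and after scaling 4 and 2, beside the same shares of all genes. The exception was *RDH10*, the retinol dehydrogenase that supplies retinal to the ALDH1A enzymes, at 50.5 TPM in Rep1 and at 15.1 TPM in Rep2. *RDH13*, *SDR16C5* and *ADH7*, counted as higher in Rep2 as deposited, were listed at 0 in Rep1 and averaged at least 1 TPM only through Rep2. *DHRS3*, which reduces retinal back to retinol, was at 46.7 TPM in Rep1 and at 185 TPM in Rep2. Hence *DHRS3* TPM was 0.924 of *RDH10* TPM in Rep1 and 12.2 times it in Rep2. In Rep1 these opposed enzymes were close to equal, from at least 44 reads for *DHRS3* and 50 for *RDH10*, so no order is read there. *ADH5*, an alcohol dehydrogenase of broad expression, was at 66.8 and 263 TPM, and *CYP1B1*, a cytochrome that can also oxidize retinol, at 22.5 and 142 TPM in Rep1 and Rep2.

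The breakdown genes with a row were low. *CYP2C8*, a cytochrome that can also degrade retinoic acid, was listed at 0 in both libraries. *CYP26A1*, which degrades retinoic acid, was at 2.79 TPM in Rep1 and at 0.541 TPM in Rep2, from at least 3 and 10 reads. In Rep2 it was below each of the ALDH1A genes, whereas in Rep1 it was above *ALDH1A2* and *ALDH1A3* and below *ALDH1A1*.

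Of 10 receptors and cofactors, 4 were at least 2-fold higher in Rep2 and 5 in Rep1, beside 58.7% and 18.2% of all genes, with a median difference of 0.79. After scaling the counts were 2 and 6, beside 40.2% and 28.8%, and the median was 1.91. *RXRA*, a partner of the RARs on DNA, was at 0.776 TPM in Rep1 and at 0.738 TPM in Rep2. *RXRB* was at 56.9 and 5.26 TPM and *RXRG* at 17.5 and 37.0 TPM, so the main partner by level was *RXRB* in Rep1 and *RXRG* in Rep2. *NCOR1*, a corepressor of nuclear receptors, was at 1091 TPM in Rep1 and at 142 TPM in Rep2, and *NCOA2*, a coactivator, at 194 and 33.8 TPM.

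A list of 12 genes known to respond to retinoic acid had 8 genes above 0, of which 3 were at least 2-fold higher in Rep2 and 2 in Rep1 (58.7% and 18.2% of all genes), with a median difference of -0.23. This balance turned after scaling, with 2 higher in Rep2 and 4 in Rep1 (40.2% and 28.8% of all genes) and a median of 0.94. *RARRES2*, which encodes the chemoattractant chemerin, was at 144 TPM in Rep1 and at 760 TPM in Rep2. *MEIS1* and *MEIS2*, homeobox genes, were at 414 and 245 TPM in Rep1 and at 7.42 and 4.14 TPM in Rep2. The nuclear receptor genes *NR2F1* (81.6 and 129 TPM in Rep1 and Rep2) and *NR2F2* (66.9 and 56.0 TPM) stayed within 2-fold. The remaining 4 genes, among them *STRA8*, were listed at 0 in both libraries.

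**Figure D4:**
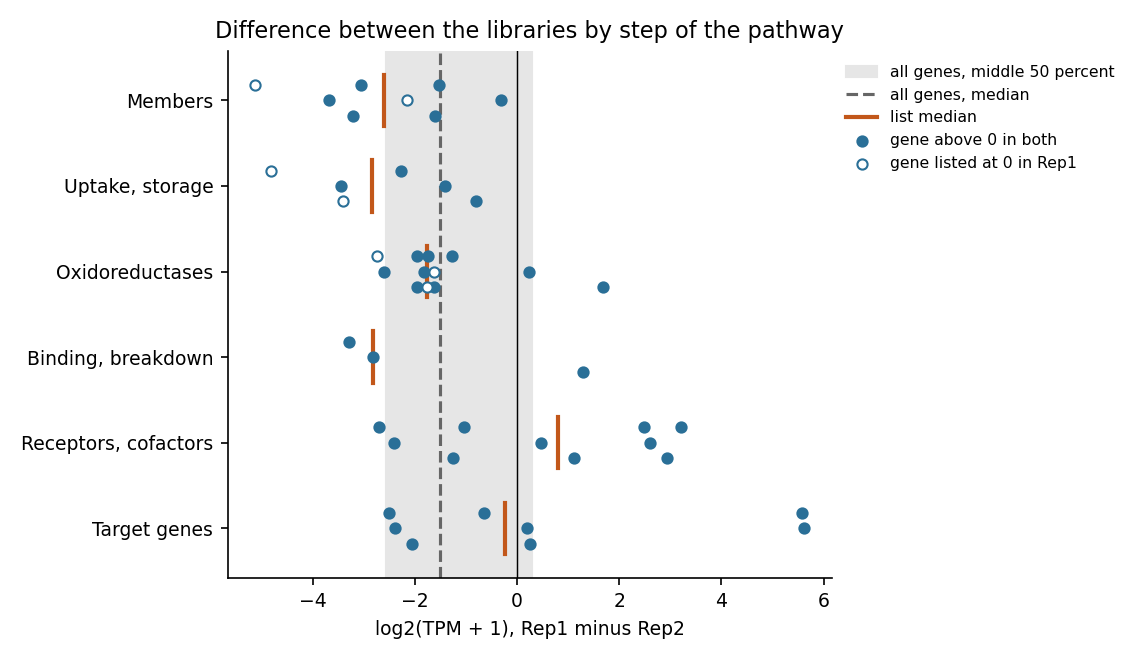
Each point is a gene averaging at least 1 TPM, placed by its difference in log2(TPM + 1), Rep1 minus Rep2, in rows for the members and for the other lists of the pathway, with open points for genes listed at 0 in Rep1, orange bars at list medians, a dashed line at the median of all genes (-1.52) and grey shading over their middle 50 percent. The members and the uptake genes lie left of 0, whereas the receptors and cofactors spread to both sides with a median of 0.79.

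Because the tissue was bulk, fewer cells of a type and less RNA per cell cannot be told apart, and markers of cells known to express the members were read beside them. The 12 markers of meningeal fibroblasts were at least 2-fold higher in Rep2 in 12 of 12 genes, beside 58.7% of all genes, and after scaling in 6 of 12, beside 40.2%. They summed to 1887 TPM in Rep1 and 16343 TPM in Rep2. Among them *SLC22A6*, a transporter of the meninges, was at 32.0 TPM in Rep1 and at 134 TPM in Rep2. The direction was that of *ALDH1A2* and *CRABP2*, but it was also that of 8 of 8 oligodendrocyte, 7 of 8 vascular and 6 of 8 astrocyte markers at the same limit (7, 4 and 4 after scaling), so it was not particular to fibroblasts. The part of these cells in the members' differences was not tested. Ratios to single fibroblast genes differed by gene. The TPM ratio of *CRABP2* was 0.0431 in Rep1 and 0.0348 in Rep2 to *DCN*, but 1.34 and 2.73 to *SLC22A6*. For *ALDH1A2* it was 0.0017 and 0.0032 to *DCN* and 0.054 and 0.252 to *SLC22A6*, lower in Rep1 for both genes, where the bound for *ALDH1A2* is only 1 read.

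*TTR* and *RBP4* are best known from the liver and *TTR* also from the choroid plexus, and all of *TTR*, *RBP4* and *STRA6* are known from the retinal pigment epithelium. Of 9 liver and plasma markers, 6 were listed at 0 in both libraries, among them *ALB*, and their sum was 8.85 TPM in Rep1 and 87.6 TPM in Rep2, nearly all of it from *SERPINA1*, so *TTR* and *RBP4* were above 0 in both libraries while *ALB*, the defining liver transcript, was at 0. Choroid plexus markers were above 0 in Rep1 in 4 genes, with 5 listed at 0 there alone and 1 in both libraries. They summed to 801 TPM in Rep1, of which *OTX2* made 769 TPM, and to 71.2 TPM in Rep2, of which *KCNJ13* made 55.8 TPM. *OTX2* is also on the list of pigment epithelium markers, and Rep1 carried retinal transcripts. The part of retinal tissue in the *OTX2* value was not tested. *KCNJ13*, a potassium channel gene of choroid plexus and pigment epithelium, was at 27.9 TPM in Rep1, with a log2 difference of -0.98, which is under 2-fold and 0.54 above the median of all genes. Besides *OTX2*, *SLC4A5* was higher in Rep1 as deposited, at 2.20 TPM against 0.659 TPM, whereas *AQP1* was at 1.48 TPM in Rep1 and at 11.8 TPM in Rep2. Of the 4 markers averaging at least 1 TPM, 1 was at least 2-fold higher in Rep2 and 1 in Rep1 (58.7% and 18.2% of all genes), and after scaling 1 and 2. These 4 thus had no common direction, and the 5 listed at 0 in Rep1 alone were at most 1.17 TPM in Rep2.

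The 12 pigment epithelium markers ran from 0 to 769 TPM in Rep1 and from 0.0633 to 627 TPM in Rep2, and 4 of them were listed at 0 in Rep1. The 769 TPM in Rep1 and the 0.0633 TPM in Rep2 are those of *OTX2*, shared with the choroid plexus list. Of the 9 averaging at least 1 TPM, 4 were at least 2-fold higher in Rep2, 2 in Rep1 and 3 in between, and after scaling 4, 4 and 1. *SERPINF1*, at 123 TPM in Rep1 and at 627 TPM in Rep2, and the pigment gene *PMEL*, at 1.09 and 10.4 TPM, were among those higher in Rep2. The others higher in Rep2, *TYRP1* and *MLANA*, were listed at 0 in Rep1 and averaged at least 1 TPM only through Rep2. *RPE65*, the isomerase of the visual cycle, was at 6.05 TPM in Rep1 and at 13.1 TPM in Rep2. *RLBP1*, the retinal carrier of pigment epithelium and Muller glia, was at 76.7 TPM in Rep1 and at 6.12 TPM in Rep2, and was among those higher in Rep1. The 6 adipocyte markers summed to 9.97 TPM in Rep1 and 66.9 TPM in Rep2, of which *FABP4* alone made 8.54 and 45.6 TPM. *ADIPOQ* was at 0.215 and 0.512 TPM. The part of any of these cells in the levels of *TTR*, *RBP4* and *STRA6* was not tested.

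**Figure D5:**
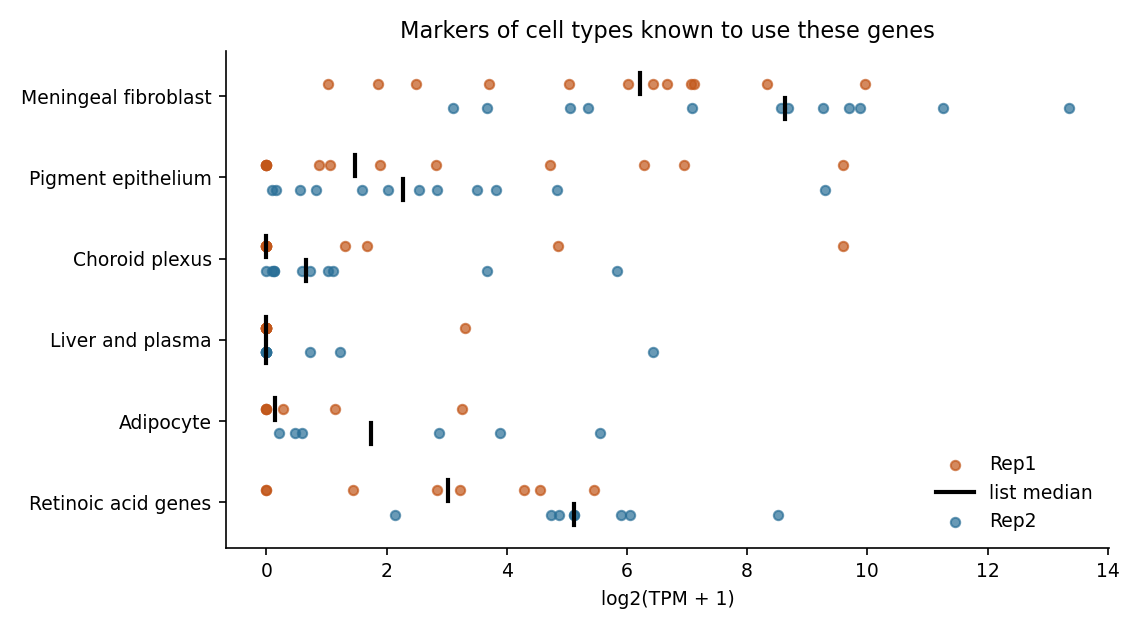
Points give log2(TPM + 1) of each marker gene in Rep1 (orange) and Rep2 (blue) for 5 cell types and for the retinoic acid genes, with a black bar at the median of each list and library. Meningeal fibroblast markers ran from 1.03 to 995 TPM in Rep1 and from 7.58 to 10504 TPM in Rep2, whereas most liver and choroid plexus markers lay at or near 0.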

How the data were processed

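The authors extracted total RNA, amplified cDNA (SMARTer v4 Ultra Low Input kit), trimmed reads with Trim Galore 0.6.6 after FastQC 0.11.9, aligned them to Mmul_10 with STAR 2.7.1a and counted them per gene with FeatureCount (featureCounts 1.5.3). They deposited TPM, that is counts divided by gene length and scaled to 1000000 per library. Gene lengths, strand use and the handling of multiple alignments are not given in the sources used here, and TPM keeps no total depth. Columns Rep1 and Rep2 could not be tied to sample titles and were used as replicates of 1 condition.

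Rows were selected by symbol. Levels, SD (n = 2), percentiles and differences in log2(TPM + 1), which understates changes of low genes, were computed with pandas 2.3.3 and numpy 2.4.6 (Python 3.11). Relative depth came from ratios of whole read numbers (tolerance 1e-12). The read ratios, the spread of a single library and the scaling factors were tested on simulated data. The data simulated for the spread had no general shift between the libraries, unlike the real ones. Sequences, coordinates and identities came from the RefSeq genome, transcripts and annotation of Mmul_10 (Biopython 1.88). All 8 members with a row matched, and coding bases were aligned in place of the planned proteins, which were not used here. Figures were drawn with matplotlib 3.10.9. Alternatives were another pseudocount, scaling, gene sets, folds, averages and single libraries. The members and lists were chosen with earlier results of these data known. Of the other pathway genes, those with a mean of at least 50 TPM or a role next to a member were named. Amplified copies of 1 molecule are not independent reads, so the read numbers understate the error. The values of some single genes counted in these lists are not reported here.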

Additional observations from a re-analysis of the deposited data

How the results depend on the processing

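No paired analysis was possible because there were no groups to pair. Leaving single libraries aside, 118 values were recomputed, of which 101 changed by less than the spread or a factor of 1.5, and 17 moved beyond it. The difference of *RARB*, which was within 2-fold, changed sign from -0.31 to 0.84 with scaling by the median of ratios, while no difference of a member past 2-fold changed sign. Among the other pathway genes, scaling by the median of ratios left 12 at least 2-fold higher in Rep2 and moved their median difference to -0.78, and a 4-fold limit left 10 higher in Rep2 and 4 in Rep1. The counts and the median of the members stayed within 1.5 times under all settings run, and so did the 16 pairs over 1 SD apart. With the 10 most abundant genes left out, the mean of *RARB* was 32.0 TPM. With a pseudocount of 0.1 the difference of *ALDH1A3* was -8.40 and that of *STRA6* -5.14, because their Rep1 values are 0. Single libraries gave 42.9 to 366 TPM for *CRABP2* and 22.5 to 28.1 TPM for *RARB*. Each of 2 libraries lies 0.707 SDs from their mean, so this says nothing about stability. The low depth of Rep1 limits *ALDH1A2*, *ALDH1A3*, *STRA6* and *RARG*, where few reads or a 0 do not show a low level in the tissue.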
